A study of Mus musculus with 18 samples.

Results

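The Wnt pathway was followed through 55 protein-coding genes in mouse embryonic stem cells (ESCs) that were induced to differentiate with retinoic acid, with and without conditional loss of the transcription factor Oct1. The genes were picked by name from the 21995 genes of the deposited count table: 18 Wnt ligands, 10 Frizzled receptors, the co-receptors Lrp5 and Lrp6, 7 genes of the R-spondin and Lgr group, 9 secreted antagonists, 5 nuclear effectors and 4 feedback targets. The rule used gene names and no measured value, but the set was chosen with earlier results of these data known. ESCs are cultured cells able to form every tissue of the embryo, and Oct1, the product of Pou2f1, is a POU family factor that binds the octamer DNA motif.

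There were 6 groups of 3 bulk RNA-seq libraries. The cells labelled Oct1 cKO, also called KO in the labels, were sampled undifferentiated at day 0 and at days 2 and 6 of differentiation, and the parental cells were sampled at the same days. All differentiating cells were grown on 0.01% gelatin in medium with 1.5 ug/ml retinoic acid, a vitamin A derivative that drives ESCs out of pluripotency. The labels do not say which part of Pou2f1 was deleted, how the deletion was driven, or whether the Oct1 cKO cells are 1 clone, so a difference between these lines cannot be told apart from a difference between clones. Whether the 3 replicates within each group were separate cultures is not stated, so the spread behind each p-value is that of these libraries alone and could be technical.

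In the canonical Wnt pathway, secreted Wnt proteins bind a Frizzled receptor together with Lrp5 or Lrp6, beta-catenin (Ctnnb1) escapes degradation, and TCF/LEF factors in the nucleus then switch on target genes. Several of those targets, among them Axin2 and Nkd1, feed back to damp the signal. R-spondins act through Lgr receptors to keep Frizzled proteins on the cell surface, while Sfrp, Dkk, Wif1 and Notum proteins hold the ligands or the receptors back. Some ligands, such as Wnt5a and Wnt11, are best known for signalling without beta-catenin, for example in planar cell polarity. In mouse ESCs Wnt signalling supports self-renewal, and in the embryo it is needed to form mesoderm.

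Total counts ran from 13694126 to 19296966 per library, and levels are given as CPM, counts scaled to library size with TMM factors. Pou2f1 was lower in every Oct1 cKO library than in any parental library of its day: 87.2, 88.2 and 62.4 against 135, 124 and 127 CPM at day 0, 59.5, 60.8 and 58.8 against 105, 97.9 and 106 CPM at day 2, and 36, 45.3 and 44.5 against 64.9, 61.1 and 64.2 CPM at day 6. Counts cover the whole gene, so reads from undeleted parts are included. The summed level of 10 ESC markers was 9740 to 10300 CPM in Oct1 cKO libraries and 8200 to 8340 CPM in parental libraries at day 0, which bears out the label of the undifferentiated cells. Replicate 3 of the Oct1 cKO at day 0 stood apart from the other replicates of its group. Without it, 12 Wnt genes were called higher and 17 lower at day 0, against 11 and 19 with it. Wnt2b, Wnt7b and Wif1 lost their lower call, Fzd5 gained a higher one, and Wnt8b, which passed the filter on low counts without that library but not with it, was called lower. Genes of chromosome 11 were lower as a whole in the Oct1 cKO, with a median log2 fold change of -0.38 at day 0, -0.37 at day 2 and -0.39 at day 6 over 974 genes. That chromosome carries 8 of the Wnt genes (Axin2, Fzd2, Notum, Tcf7, Wnt3, Wnt3a, Wnt9a and Wnt9b), and for these the value with the chromosome's shift taken out is given wherever it alters the call.

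The Wnt genes were called lower more often than higher in the Oct1 cKO at each day, and the median difference was largest at day 6. At day 0 this did not hold among changes of at least 2-fold. Of the 55 genes, 52 passed the filter on low counts and were tested, and Rspo2, Wnt10a and Wnt8b did not pass it. A gene was called where its Benjamini-Hochberg adjusted p from edgeR's quasi-likelihood test over all 18352 genes tested was under 0.05. At day 0, 11 of the 52 were called higher and 19 lower, while 26.4% and 27.0% of all genes tested were called in those directions. At day 2, 5 were called higher and 28 lower, against 33.7% and 33.6% of all genes. At day 6, 11 were called higher and 33 lower, against 36.7% and 37.8% of all genes. The median log2 fold change of the 52 genes stood at -0.10, -0.40 and -0.92 on days 0, 2 and 6, and the medians over all genes were 0.00, -0.01 and 0.00. By at least 2-fold, 6 Wnt genes were called higher and 5 lower at day 0, against 1125 and 1208 of all 18352 genes. At day 2 these counts were 1 and 17, against 1216 and 2543 of all genes. At day 6, 24 Wnt genes were called lower by at least 2-fold and 7 higher, against 20.3% and 15.6% of all genes in those directions. Leaving out the genes of chromosome 11, 10 were higher and 16 lower of 44 at day 0, 4 higher and 22 lower at day 2, and 10 higher and 29 lower at day 6.

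**Figure D1:**
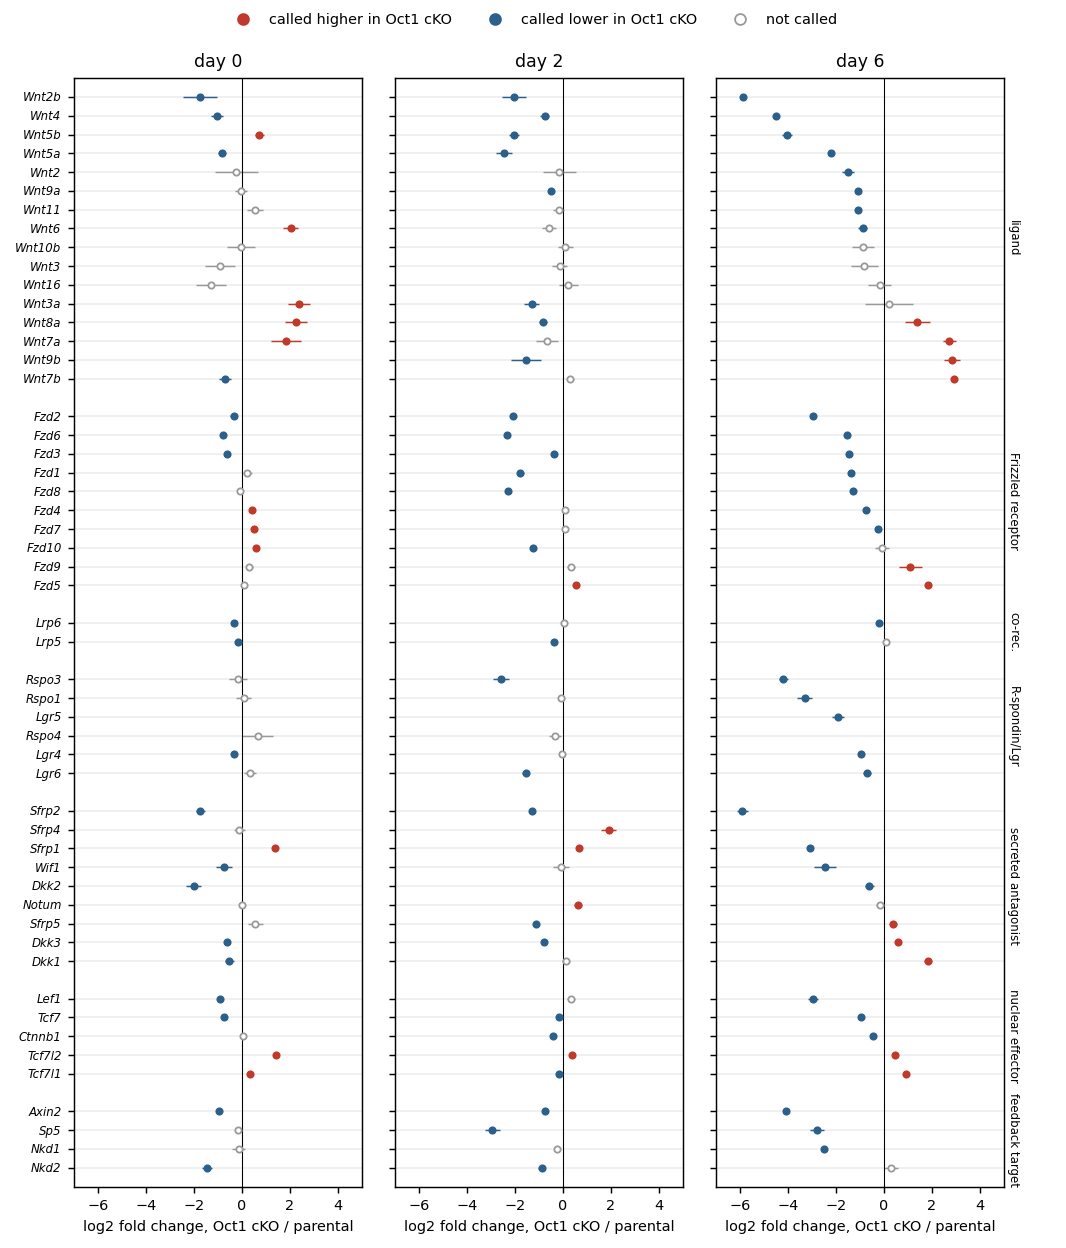
Log2 fold change of the tested Wnt genes, Oct1 cKO over parental, at days 0, 2 and 6, with 1 standard error either way. Genes are grouped by role and sorted by their day 6 value; filled red points were called higher, filled blue points called lower, and open points not called. Lgr5 and Wnt9b at day 0, Lgr5 and Dkk2 at day 2, and Rspo4 and Sfrp4 at day 6 are left out because a group held 3 counts or fewer. Most day 6 points lie left of 0, with 33 genes called lower and 11 higher.

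Direction differed between days for some of the genes. Of the 52 Wnt genes tested, 10 were called lower at all 3 days, a larger share than the 6.2% of all genes tested. They were Axin2, Dkk2, Fzd2, Fzd3, Fzd6, Sfrp2, Tcf7, Wnt2b, Wnt4 and Wnt5a. Tcf7l2 alone was called higher at all 3 days, against 6.86% of all genes tested. The calls of Fzd2 and Wnt2b at day 0 did not outlast every left-out library. Axin2, Fzd2 and Tcf7 lie on chromosome 11. With that chromosome's shift taken out, Fzd2 was not called at day 0 (0.03, adjusted p = 0.871). Tcf7 was then called higher at day 2 (0.21, adjusted p = 0.000981), so these genes would leave the class. Dkk2 had only 2 counts in the Oct1 cKO at day 2. There were 15 Wnt genes called higher at one day and lower at another, among them Sfrp1, Wnt3a, Wnt5b and Wnt7b, and 32.6% of all genes tested did the same. Wnt3, Wnt10b and Wnt16 were called at no day, like 6.88% of all genes.

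Of the 4 genes grouped here as feedback targets, Axin2, Sp5 and Nkd1 were called lower in the Oct1 cKO at day 6. Nkd2 was not called, and 37.8% of all genes tested were called lower at that day. Wnt targets placed in other groups went otherwise: Dkk1 and Rnf43 were called higher at day 6 (1.84 and 1.60). Of 16 further targets 7 were called higher and 6 lower, against 36.7% and 37.8% of all genes. The 4 genes are thus not a measure of the pathway's output. Axin2, a scaffold of the complex that degrades beta-catenin, had 36.9, 40.5 and 36.6 CPM in Oct1 cKO libraries and 71.8, 74.5 and 72.5 CPM in parental libraries at day 0. At day 2 it had 18.9, 16.6 and 19.1 CPM in the Oct1 cKO and 31.7, 29.1 and 30.0 CPM in parental cells, and at day 6 it had 4.05, 4.23 and 3.94 CPM in the Oct1 cKO and 66.5, 69.9 and 72.2 CPM in parental cells. The groups did not overlap at any day. In bulk RNA, fewer cells of a type and less RNA per cell cannot be told apart, here or in any result that follows. On the log2 scale the Oct1 cKO differed by -0.94 ± 0.06 (SE, adjusted p = 3.66e-16) before differentiation and by -0.74 ± 0.07 after 2 days (adjusted p = 6.7e-12). By day 6 the difference was -4.09 ± 0.08 (adjusted p = 9.15e-33), which is a 17-fold difference. With the chromosome 11 shift taken out these values were -0.57, -0.37 and -3.70, and all were still called. In parental cells Axin2 dipped and came back, so that day 6 was not called different from day 0 (-0.07 ± 0.05, adjusted p = 0.236). Without replicate 2 or 3 of the parental cells at day 6 that small difference was called, at -0.15 and -0.18 (adjusted p = 0.0264 and 0.00899). In the Oct1 cKO it fell at both steps and ended -3.22 ± 0.09 below day 0 on the log2 scale (adjusted p = 1.08e-28). The change to day 6 differed between genotypes by -3.15 ± 0.11 (adjusted p = 8.51e-25).

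Sp5, a zinc finger factor induced directly by Wnt signals, did not differ at day 0, with 8.95, 8.71 and 9.79 CPM in the Oct1 cKO and 10.5, 10.5 and 9.86 CPM in parental cells (adjusted p = 0.247). At day 2 it had 0.127, 0.350 and 0.334 CPM in the Oct1 cKO and 1.99, 2.58 and 1.89 CPM in parental cells, a log2 fold change of -2.95 ± 0.31 (adjusted p = 1.46e-10). At day 6 the means were 0.280 and 1.99 CPM, with a log2 fold change of -2.79 ± 0.31 (adjusted p = 3.34e-10). Sp5 thus fell with differentiation in both lines and was lower in every Oct1 cKO library at days 2 and 6. Nkd1, an inhibitor of Dishevelled, the protein that relays the signal from Frizzled, climbed in both lines but less in the Oct1 cKO. At day 6 it had 7.86, 5.44 and 6.23 CPM in the Oct1 cKO and 37.5, 38.3 and 35.6 CPM in parental cells (-2.51 ± 0.10, adjusted p = 3.25e-23), with groups far apart, and it was not called different at days 0 and 2. Its relative Nkd2 was lower at day 0 (1.55 against 4.15 CPM, adjusted p = 2.86e-07) and still so at day 2 (4.68 against 8.61 CPM, adjusted p = 7.11e-07), and was not called at day 6 (1.09 against 0.894 CPM, adjusted p = 0.382).

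**Figure D2:**
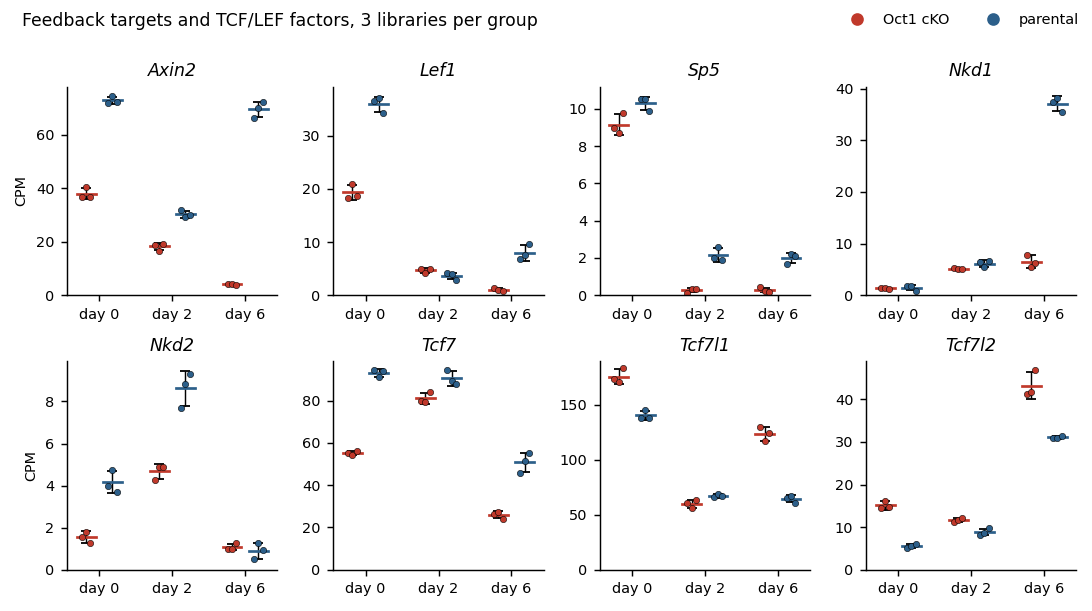
Level in CPM, by day, of the 4 feedback targets and of the 4 TCF/LEF factors. Each point is 1 library, coloured bars are means and black bars are ± 1 SD over 3 libraries, with Oct1 cKO left of parental at each day. Axin2 is the clearest case: at day 6 the 3 Oct1 cKO libraries sit between 3.94 and 4.23 CPM and the parental libraries between 66.5 and 72.2 CPM.

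The nuclear effectors moved in different directions. Lef1, the TCF/LEF factor most often tied to activation, had 18.3, 21.0 and 18.7 CPM in the Oct1 cKO and 36.5, 37.1 and 34.4 CPM in parental cells at day 0. At day 2 it had 4.94, 4.08 and 4.88 CPM in the Oct1 cKO and 4.07, 3.89 and 2.89 CPM in parental cells, and at day 6 it had 1.37, 0.984 and 0.699 CPM in the Oct1 cKO and 6.77, 7.47 and 9.71 CPM in parental cells. It was therefore lower in the Oct1 cKO at day 0, by -0.90 ± 0.09 (adjusted p = 1.38e-10), and again at day 6, by -2.95 ± 0.20 (adjusted p = 1.31e-16). At day 2 its groups did not overlap, with the Oct1 cKO above, and it missed the threshold (0.35 ± 0.16, adjusted p = 0.0567). Leaving out replicate 1 of the parental cells at day 2 gave 0.43 (adjusted p = 0.0425), and leaving out replicate 2 of the Oct1 cKO gave 0.44 (adjusted p = 0.0344). From day 2 to day 6, Lef1 fell further in the Oct1 cKO (-2.17 ± 0.23, adjusted p = 3.78e-11) and rose in parental cells (1.13 ± 0.14, adjusted p = 2.61e-09).

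Tcf7 (TCF1), which like Lef1 mostly activates with beta-catenin, was lower at day 0 (55.3 against 93.2 CPM, -0.75 ± 0.06, adjusted p = 8.67e-14) and again on day 6 (26.0 against 50.8 CPM, -0.96 ± 0.06, adjusted p = 1.58e-16). With the chromosome 11 shift taken out these differences were -0.37 and -0.57, and both were still called. The small difference of Tcf7 at day 2 (-0.16 ± 0.05, adjusted p = 0.00898) turned to 0.21 with that shift taken out. Tcf7l1 (TCF3), which in mouse ESCs acts mainly as a repressor of Wnt and pluripotency targets, went the other way. It had 130, 117 and 124 CPM in the Oct1 cKO and 65.5, 66.9 and 60.8 CPM in parental cells at day 6 (0.94 ± 0.05, adjusted p = 9.48e-19), and was also higher at day 0 (176 against 141 CPM, adjusted p = 1.14e-06). At day 2 it was slightly lower (59.8 against 67.5 CPM, adjusted p = 0.00549), a call that failed on leaving out Oct1 cKO replicate 2 (adjusted p = 0.0739). Tcf7l2 (TCF4) was higher in the Oct1 cKO at every day, most at day 0, where it had 14.4, 16.2 and 14.7 CPM against 5.19, 5.57 and 6.02 CPM in parental cells (1.43 ± 0.10, adjusted p = 1.77e-14). At day 2 its difference was 0.39 ± 0.09 (adjusted p = 0.000395, or 0.0608 with library sizes alone). Ctnnb1, by far the most abundant Wnt transcript, was at 946 CPM in the Oct1 cKO and 922 CPM in parental cells at day 0, where it was not called (adjusted p = 0.485), and was lower at day 6, at 1230 against 1680 CPM (-0.45 ± 0.04, adjusted p = 2.3e-12).

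Promoter sequence was read for the members that the RefSeq table (GRCm38.p6) lists, which were 38 of the 55, as 250 bases before to 50 bases after each start. A TCF/LEF site, CTTTGAT on either strand, was present in 3 of the 38 genes and in 4.29% of 27025 genes. The octamer bound by Oct1, ATGCAAAT on either strand, was present in 2 of the 38 and in 1.97% of all genes. The 150 bases before the start are shown for those 5 genes and for Axin2, in lower case with the match in capitals, because these are the letters bound by the pathway's own factors and by Oct1. Wnt5b has 3 listed starts and Wnt11 has 2, and the one with a match is shown. A match is a description of the letters and not a site shown to be used. The first group holds the windows with TCF/LEF matches, at chr2:70474773-70474922 (plus strand), chr6:119449387-119449536 (minus strand) and chr7:98834962-98835111 (plus strand).
Sp5: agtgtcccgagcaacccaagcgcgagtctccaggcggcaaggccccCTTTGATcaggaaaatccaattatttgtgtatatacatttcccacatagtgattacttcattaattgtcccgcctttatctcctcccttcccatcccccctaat
Wnt5b: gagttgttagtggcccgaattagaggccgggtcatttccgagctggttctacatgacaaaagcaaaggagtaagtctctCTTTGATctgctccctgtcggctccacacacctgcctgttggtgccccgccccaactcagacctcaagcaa
Wnt11: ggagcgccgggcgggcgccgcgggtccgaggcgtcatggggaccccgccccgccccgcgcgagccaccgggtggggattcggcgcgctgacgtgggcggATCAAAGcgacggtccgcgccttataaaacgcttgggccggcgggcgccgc

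The windows with octamer matches lie at chr3:83766171-83766320 and chr2:109917497-109917646, and the Axin2 window, whose listed promoter holds neither motif, lies at chr11:108920199-108920348, all on the plus strand.
Sfrp2: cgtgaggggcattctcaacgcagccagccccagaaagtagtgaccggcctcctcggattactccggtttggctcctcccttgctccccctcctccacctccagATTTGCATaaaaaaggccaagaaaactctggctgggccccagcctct
Lgr4: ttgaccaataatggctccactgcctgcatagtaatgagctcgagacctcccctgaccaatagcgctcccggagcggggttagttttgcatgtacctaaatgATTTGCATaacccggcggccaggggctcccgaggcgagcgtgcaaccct
Axin2: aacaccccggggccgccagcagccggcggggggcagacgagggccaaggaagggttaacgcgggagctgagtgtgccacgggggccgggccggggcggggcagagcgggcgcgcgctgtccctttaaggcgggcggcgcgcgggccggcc

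The ligands differed between the lines in summed level and in make-up. Summed per kilobase of exon, which lets genes be set beside each other, the 18 ligands reached 23.5 ± 0.838 CPM per kb in the Oct1 cKO and 110 ± 5.69 in parental cells at day 6 (SD, n = 3 each). At day 0 the sums were 5.92 ± 0.546 and 4.66 ± 0.633, and at day 2 they were 10.9 ± 0.585 and 17.3 ± 0.668. Wnt7b gave 25.0% of the day 6 sum in the Oct1 cKO, while Wnt4 gave 51.0% in parental cells. Of the 16 ligands tested, 4 were called higher and 8 lower at day 6, none higher and 8 lower at day 2, and 5 higher and 4 lower at day 0. Over all genes tested the shares in the same order were 36.7% and 37.8%, 33.7% and 33.6%, and 26.4% and 27.0%.

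Wnt4, which in the embryo is needed for kidney and gonad development, had 11.9, 10.2 and 8.96 CPM in the Oct1 cKO and 237, 226 and 245 CPM in parental cells at day 6. This was a 22.7-fold difference (log2 -4.51 ± 0.08, adjusted p = 3.76e-35). It rose over 6 days in both lines, by 3.09 ± 0.17 on the log2 scale in the Oct1 cKO and by 6.55 ± 0.09 in parental cells, and the changes differed (-3.47 ± 0.31, adjusted p = 1.47e-12). Wnt2b, a canonical ligand of the early liver, lung and eye, was nearly silent until day 6, when it had 1.31, 1.22 and 1.21 CPM in the Oct1 cKO and 70.1, 68.4 and 83.6 CPM in parental cells. The fold was 59.1 (log2 -5.88 ± 0.13, adjusted p = 4.73e-32). Its day 0 difference, at 0.0972 against 0.343 CPM (adjusted p = 0.037), was lost when replicate 1 of the parental cells or replicate 2 or 3 of the Oct1 cKO was left out (adjusted p = 0.157, 0.0845 and 0.124).

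The ligands best known for signalling without beta-catenin were also lower. Wnt5a had 17.1, 16.3 and 16.1 CPM in the Oct1 cKO and 76.2, 73.7 and 78.5 CPM in parental cells at day 6 (-2.20 ± 0.07, adjusted p = 3.54e-26), and it was lower at days 0 and 2 too. Wnt11 had 14, 13.8 and 10.6 CPM against 26.7, 27.3 and 27.6 CPM at day 6 (-1.08 ± 0.10, adjusted p = 3.06e-12) and was not called earlier. Wnt5b changed sides: at day 0 it was higher in the Oct1 cKO (4.57 against 2.79 CPM, 0.73 ± 0.18, adjusted p = 0.00059), and at day 6 it had 0.595, 0.463 and 0.699 CPM in the Oct1 cKO and 8.71, 10.4 and 10.1 CPM in parental cells (-4.05 ± 0.20, adjusted p = 2.96e-20). Its level fell over 6 days in the Oct1 cKO (-2.97 ± 0.25, adjusted p = 7.04e-14) and rose in parental cells (1.80 ± 0.15, adjusted p = 3.95e-14).

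Wnt3a, the canonical ligand of the primitive streak and the tail bud, had its highest mean at day 0 in the Oct1 cKO and at day 2 in parental cells. Its change from day 0 to day 2 was not called in the Oct1 cKO (-0.55 ± 0.36, adjusted p = 0.155). In parental cells it was called higher (3.13 ± 0.39, adjusted p = 4.08e-09). At day 0 it had 1.13, 1.25 and 1.13 CPM in the Oct1 cKO and 0.313, 0.281 and 0.0620 CPM in parental cells. At day 2 it had 0.507, 0.933 and 0.936 CPM in the Oct1 cKO and 2.22, 2.17 and 1.54 CPM in parental cells, and at day 6 both lines were near 0, at 0.0783 and 0.0695 CPM. The groups were apart at days 0 and 2, in opposite directions, and overlapped at day 6. The day 0 log2 fold change was 2.37 ± 0.46 (adjusted p = 4e-05) and that of day 2 was -1.31 ± 0.30 (adjusted p = 0.00022), and these were 2.74 and -0.94 with the chromosome 11 shift taken out. The day 6 difference was not called (adjusted p = 0.862). Wnt8a, another ligand of the early streak, was highest at day 2 in both lines. It had 0.868 CPM in the Oct1 cKO and 0.183 CPM in parental cells at day 0 (2.24 ± 0.46, adjusted p = 9.19e-05), and 3.42, 3.67 and 4.21 CPM against 7.64, 5.30 and 7.08 CPM at day 2 (-0.83 ± 0.15, adjusted p = 9.32e-06). Its day 6 call, at 0.465 against 0.172 CPM (adjusted p = 0.0131), failed on leaving out parental replicate 1 or Oct1 cKO replicate 3 (adjusted p = 0.0557 and 0.0591). Wnt6, known from the early ectoderm and trophectoderm, was also higher at day 0 (1.67 against 0.399 CPM, 2.04 ± 0.31, adjusted p = 7.19e-07) and lower at day 6 (1.67 against 3.09 CPM, -0.89 ± 0.19, adjusted p = 8.16e-05), with the same Oct1 cKO mean at both days.

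Wnt7b, a ligand needed in the placenta and lung, and Wnt7a, which patterns the limb, were among the 4 called higher in the Oct1 cKO at day 6. Wnt7b had 27.7, 27.6 and 31.1 CPM in the Oct1 cKO and 2.54, 4.36 and 4.49 CPM in parental cells (2.93 ± 0.12, adjusted p = 2.83e-23), and Wnt7a had 6.01, 3.94 and 3.37 CPM against 0.896, 0.519 and 0.574 CPM (2.73 ± 0.26, adjusted p = 7.37e-12). Every Oct1 cKO library lay above every parental one. Wnt9b was higher at day 6 as well, at 3.12 against 0.426 CPM (2.85 ± 0.34, adjusted p = 2.66e-09). Wnt9a, in contrast, was lower at 18.1 against 38.8 CPM (-1.10 ± 0.09, adjusted p = 7.82e-13). With the chromosome 11 shift taken out its day 6 value was -0.71 and still called. Its day 2 call was lost with that shift taken out (adjusted p = 0.374), as was that of Wnt9b (adjusted p = 0.1).

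**Figure D3:**
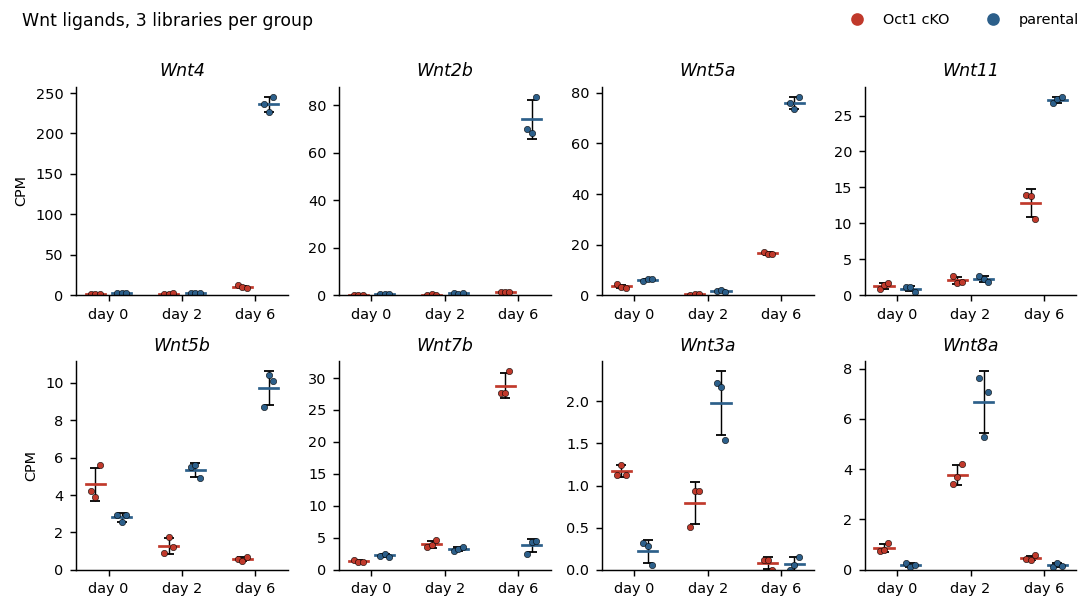
Level in CPM, by day, of 8 Wnt ligands. Each point is 1 library, coloured bars are means and black bars are ± 1 SD over 3 libraries, with Oct1 cKO left of parental. At day 6 Wnt4, Wnt2b, Wnt5a, Wnt11 and Wnt5b are lower in the Oct1 cKO and Wnt7b is higher (27.6 to 31.1 against 2.54 to 4.49 CPM), while Wnt3a and Wnt8a reach their highest parental level at day 2.

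Among the Frizzled receptors, 3 were called higher and 3 lower at day 0, 1 higher and 6 lower at day 2, and 2 higher and 7 lower at day 6. Over all genes tested the shares were 26.4% and 27.0%, then 33.7% and 33.6%, then 36.7% and 37.8%, in day order. Fzd2, a receptor for canonical ligands and for Wnt5a, had 17.4, 16.2 and 18.3 CPM in the Oct1 cKO and 72.1, 74.1 and 73.5 CPM in parental cells at day 2, and 17.6, 16 and 13.5 CPM against 125, 125 and 120 CPM at day 6. The log2 fold changes were -2.09 ± 0.07 (adjusted p = 1e-24) and -2.97 ± 0.07 (adjusted p = 6.98e-31), or -1.71 and -2.58 with the chromosome 11 shift taken out. Its day 0 call (adjusted p = 0.0281) was lost with that shift taken out (log2 fold change 0.03, adjusted p = 0.871). It was also lost without any of replicates 1 and 3 of the parental cells or 1 and 2 of the Oct1 cKO (adjusted p = 0.0713, 0.0544, 0.057 and 0.216). Fzd6, Fzd1 and Fzd8 differed most at day 2, at 4.70 against 23.9 CPM, 2.23 against 7.64 CPM and 9.47 against 46.3 CPM, with log2 fold changes from -2.35 to -1.78. Fzd8 reached its highest level at day 2 in both lines, by a log2 change from day 0 of 0.39 ± 0.12 in the Oct1 cKO and 2.59 ± 0.09 in parental cells, and these changes differed (-2.19 ± 0.15, adjusted p = 2.43e-15). Fzd3, a receptor of planar cell polarity in axons, was lower at each day and was at 14.7 against 40.1 CPM at day 6 (-1.45 ± 0.08, adjusted p = 1.46e-19). Fzd10 was higher at day 0 (42.6 against 28.8 CPM, adjusted p = 1.81e-07), lower at day 2 (3.89 against 9.07 CPM, adjusted p = 2.74e-10) and near 1 CPM in both lines at day 6.

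Fzd5, a receptor needed for yolk sac vessels in the mouse, fell with differentiation in both lines and fell less in the Oct1 cKO. It had 33.8, 33.6 and 36.7 CPM in the Oct1 cKO and 8.91, 10.2 and 10.2 CPM in parental cells at day 6 (1.83 ± 0.08, adjusted p = 6.91e-22). Fzd7, the Frizzled with the largest share of the summed receptor level per kilobase at day 6, with 61.3% in the Oct1 cKO and 41.5% in parental cells, differed little (211 against 247 CPM, -0.23 ± 0.05, adjusted p = 8.76e-05). The co-receptors varied by less still: at day 6 Lrp5 was at 98.2 against 92.5 CPM and was not called (adjusted p = 0.147), and Lrp6 was at 142 against 161 CPM (-0.19 ± 0.06, adjusted p = 0.0048), a call that failed on leaving out parental replicate 1 or 3 (adjusted p = 0.054 and 0.0523).

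All 6 genes tested from the R-spondin and Lgr group were called lower at day 6, against 37.8% of all genes tested. Rspo3, an R-spondin needed for placental vessels in the mouse, had 0.834, 0.753 and 0.699 CPM in the Oct1 cKO and 13.3, 13.4 and 15.5 CPM in parental cells, an 18.3-fold difference (log2 -4.19 ± 0.17, adjusted p = 2.61e-23). It did not pass the threshold for a rise over 6 days in the Oct1 cKO (0.60 ± 0.36, adjusted p = 0.133) and rose in parental cells (4.63 ± 0.18, adjusted p = 3.92e-24). Rspo1 was at 0.369 against 3.64 CPM (-3.31 ± 0.30, adjusted p = 8.78e-13). Lgr5, an R-spondin receptor known as a marker of intestinal stem cells, was nearly absent at day 0 and reached 1.31, 0.753 and 1.02 CPM in the Oct1 cKO and 3.13, 4.10 and 4.49 CPM in parental cells at day 6 (-1.92 ± 0.24, adjusted p = 5.55e-09). Lgr4, the most abundant receptor of the group, was at 62.7 against 121 CPM (-0.95 ± 0.05, adjusted p = 4.34e-20). Rspo4 rested on 3 counts in the Oct1 cKO, and its call failed on leaving out parental replicate 2 or Oct1 cKO replicate 1 or 2 (adjusted p = 0.175, 0.152 and 0.0914).

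Among the secreted antagonists, 1 was called higher and 5 lower at day 0, 3 higher and 4 lower at day 2, and 3 higher and 5 lower at day 6. Over all genes tested the shares were 26.4% and 27.0%, then 33.7% and 33.6%, then 36.7% and 37.8%, in day order. Sfrp1, a soluble protein with a Frizzled-like domain that binds Wnts, had 381, 374 and 354 CPM in the Oct1 cKO and 144, 134 and 141 CPM in parental cells at day 0. At day 2 it had 85.0, 87.0 and 86.4 CPM in the Oct1 cKO and 54.4, 54.4 and 53.8 CPM in parental cells, and at day 6 it had 90.8, 87.4 and 77.9 CPM in the Oct1 cKO and 705, 724 and 738 CPM in parental cells. The groups were apart at each day, with the Oct1 cKO above at days 0 and 2 and below at day 6. Its log2 fold changes in day order were 1.40 ± 0.05 (adjusted p = 8.49e-24), 0.67 ± 0.05 (adjusted p = 7e-14) and -3.08 ± 0.05 (adjusted p = 3.18e-35). Sfrp2, its close relative, was lower at every day and fell to 0.119, 0.116 and 0.191 CPM in the Oct1 cKO at day 6, against 8.36, 9.45 and 8.77 CPM in parental cells (59.9-fold, log2 -5.91 ± 0.24, adjusted p = 3.86e-23). With no Oct1 cKO library above 0.191 CPM, the size of this fold rests on few counts. Sfrp4 was called higher at day 2 (1.91 ± 0.30, adjusted p = 5.54e-07). It had 2 counts in all at day 6 in the Oct1 cKO, so no fold is given for it there.

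Dkk1, which blocks Lrp5 and Lrp6 and is itself a Wnt target, ran against most of the group. It had 5.54, 5.62 and 5.66 CPM in the Oct1 cKO and 1.34, 1.66 and 1.67 CPM in parental cells at day 6 (1.84 ± 0.16, adjusted p = 4.15e-13). It rose over 6 days in the Oct1 cKO (1.29 ± 0.16, adjusted p = 2.83e-09) and fell in parental cells (-1.08 ± 0.18, adjusted p = 9.39e-07). Dkk3 was also higher at day 6 (39.5 against 26.5 CPM, adjusted p = 4.15e-10). Dkk2 was lower at day 0 (-2.01 ± 0.31, adjusted p = 6.38e-07). Notum, an enzyme that removes the lipid that Wnts need, fell to 3.72 CPM in the Oct1 cKO and 2.38 CPM in parental cells at day 2, against 86.5 and 85.1 CPM at day 0. It was among the steepest falls of the set in both lines. At day 2 it was called higher in the Oct1 cKO (0.64 ± 0.17, adjusted p = 0.00104), or by 1.01 with the chromosome 11 shift taken out. Its levels at day 6 were not called different (2.69 against 3 CPM, adjusted p = 0.429). At day 0 it was not called either (adjusted p = 0.772), and it was called higher, by 0.40, with the chromosome 11 shift taken out. Sfrp5 had a peak at day 2, at 20.1 CPM in the Oct1 cKO and 43.9 CPM in parental cells (-1.13 ± 0.10, adjusted p = 7.97e-12). Wif1, a secreted binder of Wnts, stayed under 1.5 CPM in every library and was lower at day 6 (0.139 against 0.805 CPM, -2.46 ± 0.46, adjusted p = 8.88e-06).

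**Figure D4:**
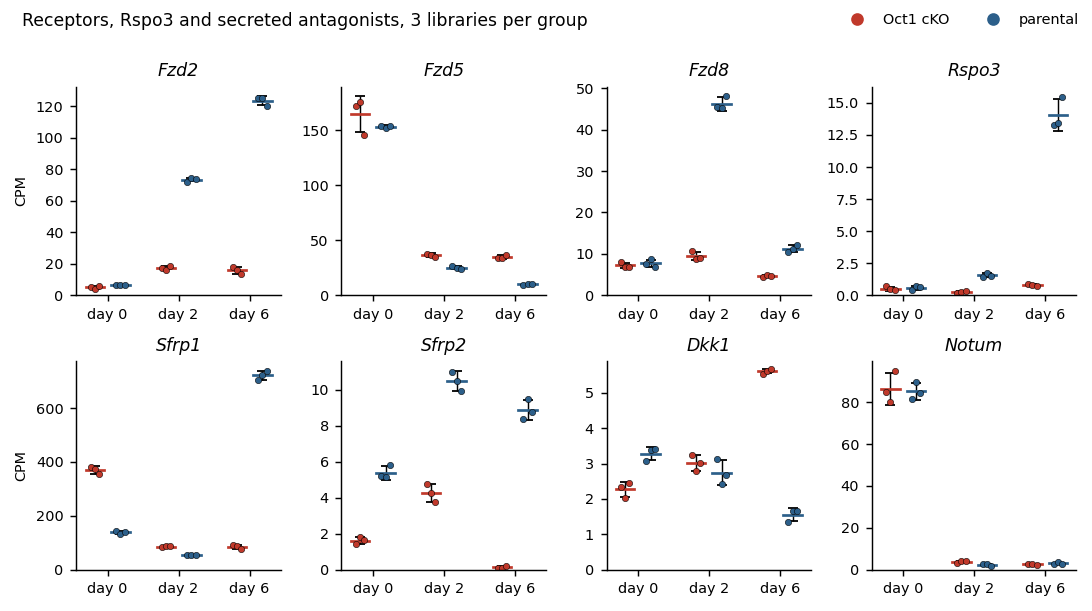
Level in CPM, by day, of 3 Frizzled receptors, Rspo3 and 4 secreted antagonists. Each point is 1 library, coloured bars are means and black bars are ± 1 SD over 3 libraries, with Oct1 cKO left of parental. Sfrp1 is higher in the Oct1 cKO at day 0 (354 to 381 against 134 to 144 CPM) and lower at day 6 (77.9 to 90.8 against 705 to 738 CPM).

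The time course of each line was compared over the same 52 genes. From day 0 to day 2, the Oct1 cKO had 25 genes called higher and 17 lower (41.0% and 35.5% of all genes), and 33 higher and 14 lower in parental cells (43.2% and 37.7%). From day 0 to day 6, the Oct1 cKO had 25 genes called higher and 20 lower (41.4% and 40.4%), and 33 higher and 11 lower in parental cells (45.3% and 40.2%). From day 2 to day 6, the Oct1 cKO had 23 genes called higher and 22 lower (39.6% and 41.6%), and 22 higher and 19 lower in parental cells (42.6% and 36.9%). The largest rises over 6 days were those of Wnt7b in the Oct1 cKO (log2 4.40 ± 0.16, adjusted p = 2.37e-25) and Wnt2b in parental cells (7.73 ± 0.16, adjusted p = 2.01e-33), among genes at 1 CPM or more in one group with groups that did not overlap. Wnt9b, with 1 count at day 0 in each line, was left aside here. Fzd10 fell in both lines, by -5.34 ± 0.14 in the Oct1 cKO (adjusted p = 1.1e-29) and by -4.71 ± 0.14 in parental cells (adjusted p = 5.86e-28).

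The 6-day change itself differed between genotypes for most of the set. It was called lower in the Oct1 cKO for 30 of the 52 genes and higher for 8, against 31.9% and 32.0% of all genes tested. For the 2-day change 23 were called lower and 9 higher, against 26.9% and 30.1% of all genes. By role, the 6-day change was called lower for 7 of 16 ligands, 7 of 10 Frizzled receptors, 5 of 6 R-spondin and Lgr genes, 4 of 9 antagonists, 4 of 5 nuclear effectors and 3 of 4 feedback targets. Wnt7b (3.65 ± 0.28, adjusted p = 2.88e-14) and Dkk1 (2.37 ± 0.24, adjusted p = 4.31e-11) had the largest differences on the higher side, and Wnt5b (-4.78 ± 0.28, adjusted p = 1.37e-17) and Sfrp1 (-4.48 ± 0.07, adjusted p = 4.39e-35) on the lower side. These comparisons share their day 0 libraries with the day 6 comparisons within each line.

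**Figure D5:**
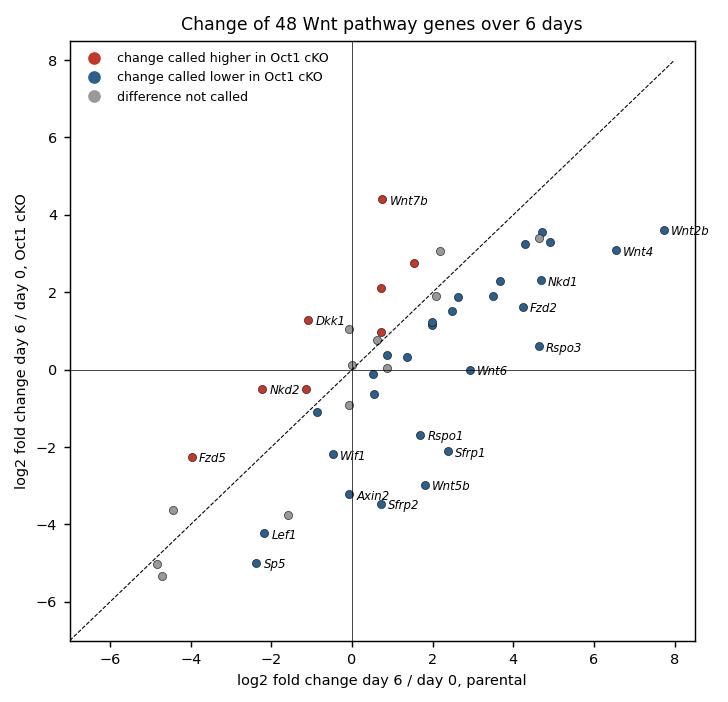
Log2 fold change from day 0 to day 6 of 48 Wnt genes, in parental cells on the horizontal axis and in the Oct1 cKO on the vertical axis; the dashed line marks equal change, and 4 genes with 3 counts or fewer in a group are left out. Points are coloured by the call on the difference between genotypes. Most coloured points lie below the line, with Sfrp1 and Wnt5b rising in parental cells and falling in the Oct1 cKO, and Wnt7b and Dkk1 above it.

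The 3 genes that did not pass the filter were low throughout. Rspo2 had 0 counts in all 3 Oct1 cKO libraries at day 6, each of which allows up to 3 counts at this depth, and 0.149, 0.104 and 0.261 CPM in the parental libraries. Wnt10a had 0.0595, 0.116 and 0.00 CPM in the Oct1 cKO and 0.398, 0.311 and 0.470 CPM in parental cells at day 6. Wnt8b was highest in parental cells at day 2, at 0.995, 0.859 and 0.399 CPM, where the Oct1 cKO had 0.0634, 0.117 and 0.0669 CPM.

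Other genes of the pathway, outside the 55, were counted in the same way. For comparison, 26.4% of all genes tested were called higher and 27.0% lower at day 0. These shares were 33.7% and 33.6% at day 2, and 36.7% and 37.8% at day 6. Of 42 further genes of the Wnt machinery, 12 were called higher and 13 lower at day 0, 14 higher and 22 lower at day 2, and 15 higher and 23 lower at day 6, with a median log2 fold change of -0.30 at day 6. Ror1 and Ror2, receptor kinases for Wnt5a, were at 8.72 against 115 CPM and 7.77 against 55.8 CPM at day 6 (adjusted p = 1.29e-29 and 4.05e-27), and the nuclear co-activator Pygo1 was at 2.63 against 38.5 CPM (adjusted p = 6.31e-30). Kremen1, a receptor for Dkk1, was higher, at 178 against 53.6 CPM (adjusted p = 6.55e-27), as was Rnf43, a Wnt target that removes Frizzled from the surface, at 11.3 against 3.74 CPM (adjusted p = 3.39e-13). Frzb was higher too, at 78.3 against 29.0 CPM (adjusted p = 2.1e-21). Of 14 planar cell polarity genes, 11 were called lower and 1 higher at day 6, with a median of -1.06, and at day 0, 6 were higher and 4 lower. Daam2, a formin that acts with Dishevelled, was at 5.39 against 190 CPM (-5.14 ± 0.09, adjusted p = 1.06e-32), and Ptk7, a polarity co-receptor, at 72.1 against 424 CPM (-2.56 ± 0.05, adjusted p = 1.79e-33), while Daam1 was the one called higher (142 against 52.2 CPM, adjusted p = 2.39e-24). Of 16 further genes often named as Wnt targets, 7 were called higher and 2 lower at day 0, with a median of 0.40. At day 2, 7 were called higher and 4 lower, with a median of 0.29. At day 6, 7 were called higher and 6 lower, with a median of -0.25. The homeobox genes Cdx1 (1.75 against 0.120 CPM, adjusted p = 3.75e-11) and Evx1 (0.0603 against 0.598 CPM, adjusted p = 1.21e-05) lay on opposite sides.

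Markers of cell types were counted at days 2 and 6 as well. Of all genes tested, 33.7% were called higher and 33.6% lower at day 2, and 36.7% and 37.8% at day 6. At day 2 the 10 ESC markers summed to 2920 to 3060 CPM in the Oct1 cKO and 1230 to 1290 CPM in parental cells, with all 10 called higher, and 9 mesoderm genes to 46.1 to 51.5 CPM in the Oct1 cKO and 91.2 to 101 CPM in parental cells, with 1 called higher and 6 lower. Neural genes had 53.4 to 59.2 CPM in the Oct1 cKO and 94.4 to 101 CPM in parental cells at day 2, with 2 called higher and 6 lower. Fibroblast genes had 151 to 181 CPM in the Oct1 cKO and 225 to 248 CPM in parental cells, with 3 called higher and 6 lower. Also at day 2, 4 of 11 extraembryonic endoderm genes were called higher and 3 lower. Of 7 trophoblast genes, 2 were called higher and 2 lower. Summed over 11 fibroblast genes, Oct1 cKO libraries had 708 to 803 CPM and parental libraries 4370 to 4670 CPM at day 6, with 8 of the 11 called lower and 1 higher. At day 0 these sums were 366 to 380 and 1170 to 1240 CPM. Over 10 neural genes the day 6 sums were 102 to 112 and 526 to 552 CPM, with 3 of the 9 tested called higher and 5 lower, and with Sox1 at 0 in the Oct1 cKO and Neurog2 at 0 in parental cells. Over 9 mesoderm genes they were 317 to 323 and 575 to 616 CPM, with 3 called higher and 3 lower. Sums of trophoblast and extraembryonic endoderm genes went the other way, at 3170 to 3620 against 832 to 916 CPM over 7 genes and 1170 to 1320 against 850 to 901 CPM over 11 genes. So did the 10 ESC markers, at 252 to 265 against 60.4 to 65.7 CPM. At day 6, 6 trophoblast genes were called higher and none lower, and 9 endoderm genes higher and 2 lower. Among the ESC markers, 7 were called higher and 1 lower. The trophoblast genes include the keratins Krt8 and Krt18. The part of these cell types in the Wnt gene differences was not tested.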

How the data were processed

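RNA-seq of total RNA from 18 libraries was analysed. Per the labels' protocols, cells were trypsinized, RNA was extracted with Trysol and standard Illumina library protocols were used. The deposited values are raw counts of reads per Ensembl gene, with no normalization. Novoalign, DESeq2 1.10.0 and the builds mm10 and GRCm38 are named, without role or order, per the submitters' processing notes. How reads were counted, with which annotation and strand setting, is not given in the sources used here, so reads of genes that overlap may be mixed.

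Libraries were grouped by genotype and day, and column names were matched to library titles. The 55 genes and the other gene lists were chosen with earlier results of these data known. The test was edgeR 4.0.16 in R 4.3.3 (TMM, filterByExpr with a minimum count of 10 and a minimum total of 15, glmQLFit with robust settings, glmQLFTest) in 1 fit of all 18 libraries with a coefficient per group and 11 contrasts. It was tested on simulated data with known changes. Adjusted p is the Benjamini-Hochberg value over 18352 genes, called under 0.05. SE was derived from the F statistic. No fold is given where a group held 3 counts or fewer, except the fitted difference of Lgr5 in the closing section. CPM per kb used exon lengths of the GRCm38 annotation. Alternatives were DESeq2 size factors in edgeR, library sizes alone, no filter, DESeq2 1.42.0, fitting only those libraries being compared, an offset for chromosome 11 in the Oct1 cKO, and each library left out in turn.

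Named genes were Axin2, Lef1 and Wnt3a throughout, and members chosen by role. Others were drawn, not in full, from the called genes with the largest change each way. These were at 1 CPM or more in one group and had groups that did not overlap.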

Additional observations from a re-analysis of the deposited data

Results flagged for a closer look

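The Wnt genes whose change over time differed most between the genotypes are given here as Oct1 cKO minus parental on the log2 scale, from edgeR's quasi-likelihood test of the difference. For the change from day 0 to day 2, the differences were 2.02 for Sfrp4, 1.25 for Lef1, 1.01 for Wnt7b and 0.65 for Dkk1 on the higher side. On the lower side they were -3.68 for Wnt3a, -3.07 for Wnt8a and -2.79 for Sp5. Lgr5 had -4.38, a fitted value that depends on the prior count, since its day 0 groups held 2 and 1 counts in the Oct1 cKO and in parental cells. Its call (adjusted p = 0.048) was lost without the filter on low counts (adjusted p = 0.0501) and on leaving out parental replicate 2 or 3 or Oct1 cKO replicate 1 or 2 at day 0, or parental replicate 2 or Oct1 cKO replicate 2 or 3 at day 2 (adjusted p = 0.0532 to 0.165). The Dkk1 difference missed the threshold on leaving out parental replicate 2 at day 2, Oct1 cKO replicate 2 at day 0 or Oct1 cKO replicate 1 at day 2, at 0.52, 0.58 and 0.59 (adjusted p = 0.0719, 0.0562 and 0.0545). It also missed with library sizes alone and with DESeq2, at 0.47 and 0.58 (adjusted p = 0.091 and 0.0786).

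For the change from day 0 to day 6, the differences were 3.65 for Wnt7b, 2.37 for Dkk1, 1.73 for Nkd2 and 1.72 for Fzd5 on the higher side, and -4.78 for Wnt5b, -4.48 for Sfrp1, -4.18 for Sfrp2 and -4.12 for Wnt2b on the lower side. Wnt2b had a mean of 0.0972 CPM in the Oct1 cKO at day 0, so its value has a wide error (SE 1.15).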

How the results depend on the processing

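The counts of Wnt genes called in each of the 11 comparisons stayed within 1.5 times under every alternative. For Oct1 cKO against parental at day 6 they ran from 9 to 12 higher and from 31 to 35 lower. Library sizes alone moved the median of all genes by -0.20 at day 2 and -0.19 at day 6 in Oct1 cKO against parental. Under that setting Axin2 at day 6 against day 0 in parental cells was 0.09 (adjusted p = 0.111), of the opposite sign to its uncalled -0.07. It was called lower with DESeq2 size factors (-0.14, adjusted p = 0.0197), no filter (-0.15, adjusted p = 0.0135), only the libraries compared (-0.15, adjusted p = 0.000704) and DESeq2 (-0.14, adjusted p = 0.0259). The uncalled day 6 difference of Wnt3a turned to -0.31, -0.17 and -0.10 in fits that left out a library. With the chromosome 11 offset the day 2 value of Tcf7 turned from lower to higher (0.21, adjusted p = 0.000981). Calls lost with single libraries left out numbered 2 to 5 of 30 at day 0, 0 to 2 of 33 at day 2 and 2 to 3 of 44 at day 6. Low counts limit the precision, with an SE of 1.83 for Wnt9b at day 0. The genes Dkk1, Fzd4, Lrp5, Wif1 and Wnt7b at day 0, Wnt9b and Tcf7l1 at day 2, and Fzd9 and Sfrp5 at day 6 lost their call without at least 1 library. No paired analysis was possible because the labels give no replicate numbers that tie libraries across groups.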
